A study of Mus musculus with 3 samples.

Results

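The genes described are the Notch receptors Notch1, Notch2, Notch3 and Notch4, the ligands Jag1, Jag2 and Dll4, and the target genes Hes1, Hey1 and Heyl. They were taken by name, 10 genes of the 32285 in the count tables, and their molecule tags (UMIs, which count captured RNA molecules once each) were summed by stromal cell class in mouse hind paws. The tested library, stromal day 5, held CD45-negative (non-leukocyte) cells from paws 5 days after serum of K/BxN arthritic mice was given to start joint inflammation. The other stromal library, stromal day 0, held cells of the same sort at the start of the time course. Each was 1 library of the 10x 3′ single-cell assay. Both came from paws stripped of skin, muscle and tendon and digested with collagenase IV and DNase. The labels used here do not give the strain, sex, age or number of the mice or whether animals were pooled. Cells were kept at 500 genes and 1000 UMIs or more and with no more than 10% of UMIs from mitochondrial genes, 11172 of 11900 barcodes at day 5 and 7368 of 7740 at day 0, with medians of 9303.5 and 9802 UMIs per cell. The day 5 and day 0 libraries shared 25 cell barcodes.

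Notch receptors are transmembrane proteins that are activated when a ligand on a neighbouring cell binds them. The receptor is then cut by ADAM proteases and gamma-secretase, and its intracellular domain joins RBPJ and Mastermind-like proteins in the nucleus to switch on repressors of the Hes and Hey families. In joint tissue the pathway is known for contact between vessel cells and nearby fibroblasts, and in vessels for sorting endothelial cells into arterial and sprouting fates and for keeping mural cells in place.

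RefSeq promoter sequence (build GRCm38.p6) was matched by symbol for 7 of the 10 genes: the 4 receptors and 3 ligands. The 250 bases before the start site are shown for the receptors whose RNA marked different cells (Notch2 in most classes, Notch3 in mural cells, Notch4 in endothelial cells) and for Dll4, a ligand found in cells with endothelial RNA. They lie at chr3:98013288-98013537 on the plus strand, chr17:32166891-32167140 on the minus strand, chr17:34564045-34564294 on the plus strand and chr2:119325534-119325783 on the plus strand. Each is written 5′ to 3′ with CpG dinucleotides, the sites of DNA methylation, in capitals.
Notch2: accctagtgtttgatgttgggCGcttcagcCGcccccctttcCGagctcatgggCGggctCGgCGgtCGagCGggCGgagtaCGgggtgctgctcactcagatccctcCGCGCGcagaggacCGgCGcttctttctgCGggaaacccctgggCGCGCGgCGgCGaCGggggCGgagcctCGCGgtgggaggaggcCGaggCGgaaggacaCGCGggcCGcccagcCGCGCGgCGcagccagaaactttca
Notch3: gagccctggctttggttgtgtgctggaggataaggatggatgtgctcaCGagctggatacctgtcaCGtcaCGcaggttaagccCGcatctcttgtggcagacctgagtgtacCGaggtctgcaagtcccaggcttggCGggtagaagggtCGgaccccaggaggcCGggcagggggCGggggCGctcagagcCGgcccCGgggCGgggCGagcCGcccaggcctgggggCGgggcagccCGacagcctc
Notch4: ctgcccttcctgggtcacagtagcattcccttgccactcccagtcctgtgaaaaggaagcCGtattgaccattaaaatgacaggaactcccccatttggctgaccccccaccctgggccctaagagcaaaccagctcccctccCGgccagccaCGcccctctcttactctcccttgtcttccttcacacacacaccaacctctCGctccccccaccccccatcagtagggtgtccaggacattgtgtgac
Dll4: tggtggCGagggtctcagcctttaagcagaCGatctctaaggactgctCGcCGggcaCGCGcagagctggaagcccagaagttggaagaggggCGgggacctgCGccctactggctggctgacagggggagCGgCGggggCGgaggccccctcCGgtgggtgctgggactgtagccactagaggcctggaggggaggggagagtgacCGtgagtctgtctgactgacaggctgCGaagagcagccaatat
Notch2 had 34 CpGs in this window, Notch3 17, Notch4 4 and Dll4 14, and the other matched genes had 16 (Notch1), 20 (Jag1) and 54 (Jag2). The median over 32851 promoters of the same length was 6, with quartiles of 2 and 16. Notch4 was thus the one matched gene under the median. None of the 7 windows held any of 4 short motifs, searched on both strands. The RBPJ core TGGGAA, which reads TTCCCA on the other strand, was held by 21.6% of promoters. The ETS core CCGGAA, whose other strand reads TTCCGG, was held by 12.03%, the GATA core AGATAA, whose other strand reads TTATCT, by 9.99%, and the E box CACGTG by 6.02%. None of these motifs contains another.

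Cells were clustered across both libraries without the 10 genes and 55 further pathway genes, and clusters were named from marker genes. The classes, in cells at day 5 and day 0, were Prg4 lining-like fibroblasts (308 and 239), Pi16 progenitor-like fibroblasts (378 and 956), Saa3 inflammatory fibroblasts (1754 and 45), other Pdgfra fibroblasts (6171 and 4100), Fmod tenocyte-like cells (1231 and 1058), Ibsp osteoblast-like cells (668 and 598) and Pecam1 blood endothelial-like cells (36 and 86). The 4 fibroblast classes together held 8611 cells at day 5 and 5340 at day 0. A mural-like cluster (20 and 15 cells) is given beside the endothelial cells because Notch3 and Heyl were concentrated there. The name Saa3 goes against the day 0 cells: the gene stood at 2125 UMIs per 1000000 of the class (CPM) at day 5, and its count was 0 in the 45 day 0 cells. Summed over the marker lists, this class had 6507 CPM of Saa3 list genes at day 5 and 637 CPM at day 0, 656 CPM of Ibsp osteoblast genes at day 5 and 7399 CPM at day 0, and 5172 CPM of Prg4 lining genes at day 5 and 576 CPM at day 0. Its cells thus differed in markers between the days, and the part of this in its Notch values was not tested. The other Pdgfra class is a remainder that holds fibroblast sub-clusters reaching no other fibroblast list, among them a cycling one and one led by Chad and Cilp2 (389 cells at day 5, 260 at day 0) whose highest list was Fmod. Without the sub-clusters with Chad among their leading genes its Hes1 ratio was 0.4996, against 0.513 with them. All 10 endothelial markers reached 20 CPM in the Pecam1 class and all 9 mural markers in the mural cluster on both days. Clusters led by muscle genes such as Acta1 together with the endothelial gene Ctla2a (40 cells at day 5, 22 at day 0) went to no class. Of these cells, 31 at day 5 and 11 at day 0 held a UMI of the endothelial genes Pecam1 or Cdh5, and the endothelial values are given with and without them. The joined set held 67 cells at day 5 and 97 at day 0, so more of it was muscle-gene cells at day 5. The muscle-gene clusters were also deeper, with medians of 13852 and 19319 UMIs, beside 5227.5 at day 5 and 6954.5 at day 0 in the Pecam1 class. The part of this imbalance and of muscle RNA in the joined values was not tested. Each group is 1 library, so no test was run. Intervals are 95% and cover counting error only, not differences between animals or preparations, and differences are sorted by size at 1.5-fold. Library, day and any pooling of animals cannot be told apart.

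Hes1, which encodes a repressor that is the classic direct target of Notch, was lower at day 5 in each of the 7 classes. In all fibroblasts it stood at 42.5 CPM at day 5 (4112 UMIs) and 80.2 CPM at day 0 (4610 UMIs), a day 5 over day 0 ratio of 0.529 (interval 0.507 to 0.552). Notch1 went the other way in fibroblasts, with 3.92 CPM at day 5 (380 UMIs) and 2.28 CPM at day 0 (131 UMIs), a ratio of 1.72 (1.41 to 2.12). Of the 8 genes with at least 20 UMIs over both days in fibroblasts, Notch1 was therefore the 1 that was at least 1.5-fold higher and Hes1 the 1 that was at least 1.5-fold lower. Among all 15540 genes counted the same way, 10.6% were at least 1.5-fold higher and 7.79% at least 1.5-fold lower, 18.4% in either direction, so 1 of 8 in each direction was near the background. Jag2 (5 UMIs at day 5, 10 at day 0) and Dll4 (3 and 2) were under the minimum. The median log2 ratio of the 8 genes was -0.05, beside 0.01 for all genes.

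**Figure D1:**
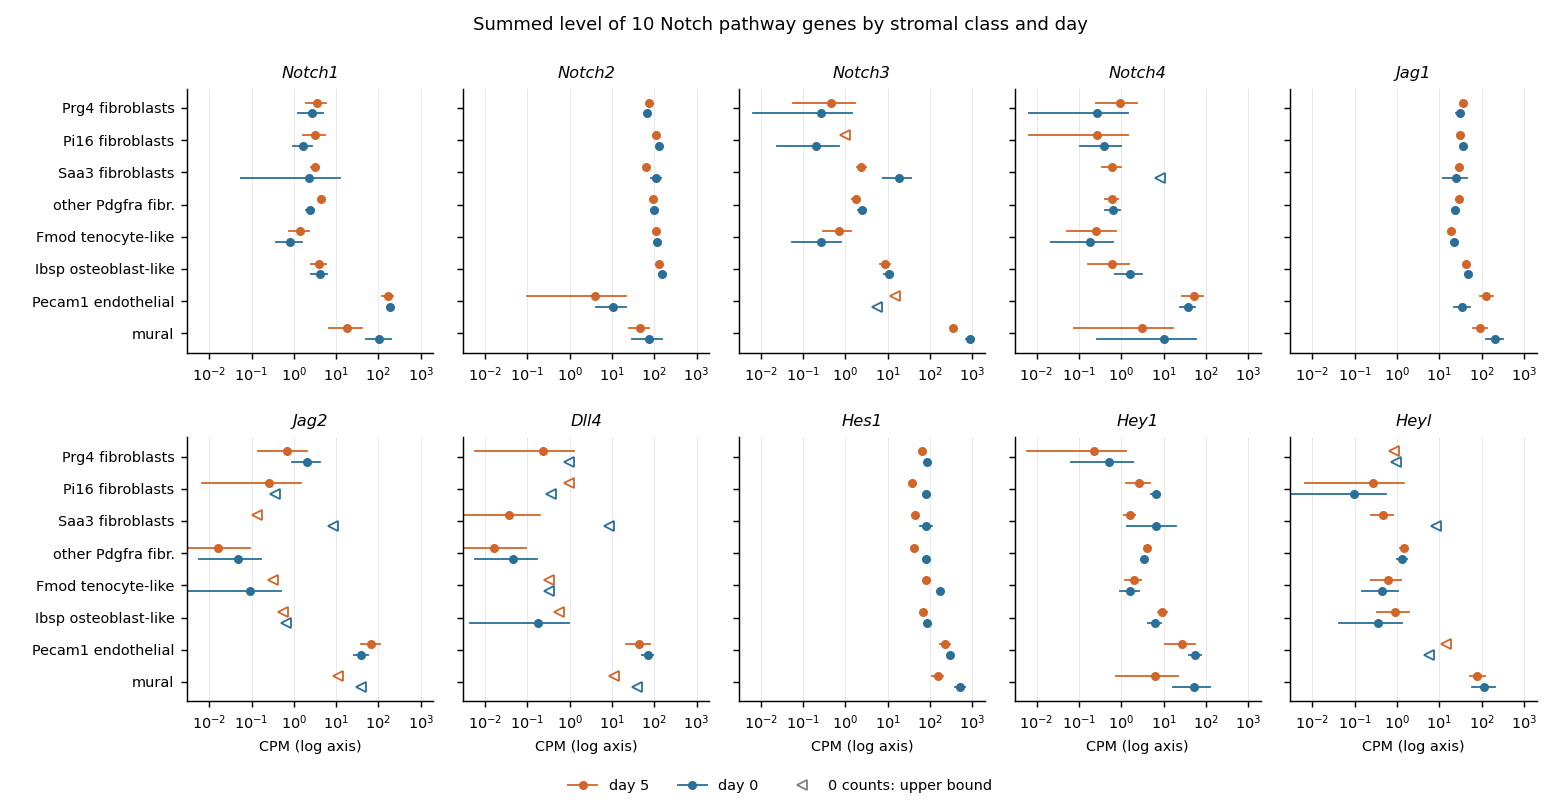
Summed level of each gene in 8 cell classes, in CPM on a log axis, with day 5 (orange) above day 0 (blue) and exact Poisson 95% intervals cut at the left edge of the axis; open triangles mark the upper bound where no UMI was counted. Of the 8 classes shown, Notch4, Jag2 and Dll4 are highest in Pecam1 endothelial-like cells, Notch3 and Heyl in mural cells, while Notch2, Jag1 and Hes1 are found in all fibroblast classes.

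Among the receptors, Notch2, the broadly used receptor of connective tissue, was found in every class outside the endothelium. Among the 7 classes its level was highest in osteoblast-like cells on both days, at 128 CPM on day 5 and 152 CPM on day 0. At day 5, Pi16 fibroblasts (111 CPM) and tenocyte-like cells (110.4 CPM) followed with overlapping intervals, then other Pdgfra fibroblasts (94.2 CPM), Prg4 fibroblasts (76.9 CPM) and Saa3 fibroblasts (65.4 CPM). At day 0 the range over the 4 fibroblast classes was 68.6 CPM in Prg4 fibroblasts to 132 CPM in Pi16 fibroblasts. Endothelial-like cells had 1 Notch2 UMI at day 5 (3.96 CPM) and 7 at day 0 (10.7 CPM), the lowest level of the 7 classes on either day.

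Notch2 differed little between days. The ratio in all fibroblasts was 0.836 (0.809 to 0.865), with 85.8 CPM at day 5 and 103 CPM at day 0. Within classes it ran from 0.841 in osteoblast-like cells and 0.843 in Pi16 fibroblasts to 1.12 in Prg4 fibroblasts, apart from the Saa3 class. There the ratio was 0.581 (0.438 to 0.785), 65.4 CPM at day 5 (1822 UMIs) against 113 CPM at day 0, where it rests on 50 UMIs in 45 cells. In that comparison 21.7% of all genes were at least 1.5-fold lower and 25.1% higher. With classes set by single-gene gates in place of clusters the Saa3 ratio was 1.10. That gate held only 84 cells at day 5 and 6 at day 0. The osteoblast and lining genes also differed between the days in this class, as given above. Without the Saa3 class the fibroblast ratio was 0.918. The share of fibroblasts with at least 1 Notch2 UMI was 54.3% at day 5 (4678 of 8611) and 58.6% at day 0 (3131 of 5340).

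Notch1, the receptor that vessels use in arterial specification, was concentrated in the endothelium. Endothelial-like cells had 42 UMIs at day 5 (166 CPM, 120 to 225) and 123 at day 0 (187 CPM), a ratio of 0.886 (0.609 to 1.27). With the muscle-gene cells that held Pecam1 or Cdh5 the ratio was 0.716 (0.553 to 0.926), and every fibroblast class was under 5 CPM on both days. Satellite-like cells (8 UMIs at day 5, 4 at day 0) and lymphatic endothelial-like cells (4 and 19) were above 100 CPM on both days. Mural-like cells had 18.5 CPM at day 5 (6 UMIs) and 105 CPM at day 0 (10 UMIs), and the muscle-gene clusters 81.2 CPM at day 5 (72 UMIs) and 42.5 CPM at day 0 (13 UMIs). The difference in fibroblasts lay mostly in the other Pdgfra class, with 4.36 CPM at day 5 (265 UMIs) and 2.40 CPM at day 0 (103 UMIs), a ratio of 1.82 (1.44 to 2.31), where 10.5% of all genes were at least 1.5-fold higher. Pi16 fibroblasts (12 UMIs at day 5, 17 at day 0, ratio 1.90, 0.827 to 4.22) and tenocyte-like cells (16 and 9, ratio 1.69, 0.705 to 4.35) were also past 1.5-fold, but on counts so low that the intervals reach below 1. Osteoblast-like cells stood at 3.88 CPM on day 5 and 4.08 CPM on day 0. Of 7 classes, 3 were past 1.5-fold upward and none downward. At least 1 Notch1 UMI was seen in 3.70% of fibroblasts at day 5 (319 of 8611, median depth 9709 UMIs) and 2.19% at day 0 (117 of 5340, median depth 10151.5).

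These low fibroblast levels were set against RNA that may have leaked from endothelial cells. Notch1 in fibroblasts was 2.36% of its endothelial level at day 5 and 1.22% at day 0, while the median of 9 endothelial markers was 0.0509% at day 5 and 0.0420% at day 0. The highest of these markers was Tek, at 12.01% and 12.4%, which was among the 10 leading genes of the Pi16 cluster. The summed level of the 10 endothelial markers in fibroblasts was 19.4 CPM at day 5 and 29.0 CPM at day 0. The part of leaked RNA in the Notch1 difference was not tested. When every cell was thinned to 2000 UMIs, the Notch1 ratio in fibroblasts was 1.33, and none of the 10 genes was then at least 1.5-fold higher. Thinning was 1 random draw that left fewer UMIs, and the thinned ratio has no interval.

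In the pooled stromal libraries Notch1 hardly differed, with 4.74 CPM at day 5 and 4.39 CPM at day 0 and a ratio of 1.08 (0.942 to 1.24), and endothelial-like cells made up 0.322% of cells at day 5 (36 of 11172) and 1.17% at day 0 (86 of 7368). With the muscle-gene cells that held Pecam1 or Cdh5, the shares were 0.600% at day 5 (67 cells) and 1.32% at day 0 (97 cells). A sum over a whole library cannot tell fewer cells of a type from less RNA per cell. For Dll4 the ratio was 0.383 (0.246 to 0.588) over all stromal cells and 0.607 within the endothelial-like class. The part of digestion and sort in the number of endothelial cells loaded was not tested.

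Notch3, the receptor that smooth muscle and pericytes need, was led by the mural-like cluster, at 357 CPM at day 5 (116 UMIs in 20 cells) and 873 CPM at day 0 (83 UMIs in 15 cells). It was detected in 19 of 20 mural-like cells at day 5 and 15 of 15 at day 0. Their ratio was 0.409 (0.306 to 0.549), in a comparison where 21.7% of all 3400 genes were at least 1.5-fold lower and 21.1% at least 1.5-fold higher. The pericyte marker Rgs5 was lower in the same cells, at 4724 CPM on day 5 and 10126 CPM on day 0, and their median depth was 12826 UMIs at day 5 and 4616 at day 0. The mural marker list summed to 10568 CPM at day 5 and 14143 CPM at day 0. Fibroblast genes were higher in the same cells, with 22153 CPM of the Pdgfra list at day 5 and 13995 CPM at day 0, 2091 CPM of the Fmod list at day 5 and 799 CPM at day 0, and 1243 CPM of the Prg4 list at day 5 and 231 CPM at day 0. The part of these shifts in the Notch3, Jag1 and Hes1 values of this small cluster was not tested. Muscle satellite-like cells also carried Notch3, with 20 UMIs in 12 cells at day 5 (290 CPM) and 13 UMIs in 5 cells at day 0 (372 CPM).

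Outside these cells Notch3 was low. Osteoblast-like cells had 8.50 CPM at day 5 and 10.5 CPM at day 0, and other Pdgfra fibroblasts 1.74 CPM at day 5 and 2.44 CPM at day 0. No Notch3 UMI was found in endothelial-like cells, where 0 of 36 cells at day 5 allows a share of cells with a UMI of up to 8.33% and 0 of 86 at day 0 up to 3.49%, taking 3 cells as the limit that a count of 0 allows. Its Saa3 class values, 2.37 CPM at day 5 and 18.01 CPM at day 0, rest on 8 UMIs in 5 of the 45 day 0 cells, in a class whose osteoblast genes were higher at day 0. Notch3 in fibroblasts was 0.504% of its mural level at day 5 and 0.231% at day 0, near the median of the mural markers (0.375% at day 5 and 0.432% at day 0), and the part of leaked RNA in the fibroblast level was not tested.

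Notch4, a receptor made mainly by endothelium, had 13 UMIs in endothelial-like cells at day 5 (51.4 CPM) and 25 at day 0 (38.1 CPM), a ratio of 1.35 (0.634 to 2.74). At least 1 UMI was seen in 10 of 36 endothelial-like cells at day 5 and 20 of 86 at day 0. In all fibroblasts it stood at 0.599 CPM on day 5 and 0.557 CPM on day 0, and no difference between days was detectable at this depth.

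The ligand Jag1, which signals to Notch2 and Notch3 on neighbouring cells, was found in every class. In all fibroblasts it stood at 29.5 CPM at day 5 (2857 UMIs) and 26.2 CPM at day 0 (1508 UMIs), a ratio of 1.12 (1.06 to 1.20). The share of fibroblasts with a UMI was 23.2% at day 5 and 19.5% at day 0. Over the 4 fibroblast classes it lay between 28.8 CPM (Saa3) and 37.0 CPM (Prg4) at day 5. At day 0 it lay between 23.4 CPM (other Pdgfra) and 36.6 CPM (Pi16). The intervals of Prg4 and Pi16 fibroblasts overlapped on both days, so a change of the highest class was not established. Osteoblast-like cells were above the 4 fibroblast classes, at 43.5 CPM on day 5 and 47.1 CPM on day 0. Their interval overlapped that of Prg4 fibroblasts at day 5. Tenocyte-like cells had the lowest level of the 7 classes, 19.0 CPM at day 5 and 22.7 CPM at day 0. After thinning each cell to 2000 UMIs the fibroblast ratio was 0.994, so the small difference was not seen at that depth. That value comes from 1 random draw of fewer UMIs and has no interval, and the part of depth was not tested.

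Within the other Pdgfra class Jag1 was higher at day 5 in most sub-clusters. In the sub-cluster led by Lpl and Sult5a1 it stood at 21.9 CPM at day 5 (473 UMIs) and 11.7 CPM at day 0 (106 UMIs), a ratio of 1.87 (1.51 to 2.33). The sub-cluster led by Phex and Atf3 had 28.8 CPM at day 5 and 19.4 CPM at day 0, and the one led by Scg3 and Igfbp6 had 45.6 CPM at day 5 and 33.0 CPM at day 0, ratios of 1.48 and 1.38. A sub-cluster led by F3, C2 and Ifitm1 was kept out of the classes because the neutrophil genes S100a8 and S100a9 stood among its leading genes. It had 56.5 CPM of Jag1 at day 5 and 31.4 CPM at day 0, a ratio of 1.80 (1.297 to 2.53).

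In endothelial-like cells the Jag1 total was 33 UMIs at day 5 (131 CPM) and 23 at day 0 (35.1 CPM), a ratio of 3.72 (2.12 to 6.64), and 26 of the 33 day 5 UMIs came from 1 cell. The share of cells with a UMI was 7 of 36 at day 5 and 16 of 86 at day 0. With the cell holding the most Jag1 UMIs left out in each library, the level was 29.1 CPM at day 5 and 29.4 CPM at day 0, a ratio of 0.989 (0.351 to 2.46). The endothelial ratio thus rests on 1 cell. It was 1.55 (1.002 to 2.45) with the muscle-gene cells that held Pecam1 or Cdh5, that cell included. Mural-like cells had 92.3 CPM at day 5 (30 UMIs) and 210 CPM at day 0 (20 UMIs), with a UMI in 14 of 20 and 11 of 15 cells.

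Jag2 and Dll4 are ligands of endothelium, and outside it and the muscle-gene clusters few of their UMIs were found. Those clusters held 16 Jag2 UMIs at day 5 and 2 at day 0, and 20 Dll4 UMIs at day 5 and 7 at day 0. Endothelial-like cells had 17 Jag2 UMIs at day 5 (67.2 CPM) and 26 at day 0 (39.6 CPM), in 10 of 36 and 22 of 86 cells. The ratio of 1.70 had an interval of 0.864 to 3.25, and it was 0.961 (0.561 to 1.66) with the muscle-gene cells that held Pecam1 or Cdh5. The endothelial cluster led by Cldn5 and Egfl7 held 15 of the 17 day 5 UMIs (154 CPM) and 9 of the 26 day 0 UMIs (65.6 CPM). Within fibroblasts, Prg4 cells held 3 of the 5 fibroblast UMIs at day 5 and 8 of the 10 at day 0, in 3 of 308 and 8 of 239 cells. Mural-like, osteoblast-like and Saa3 cells had none on either day.

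Dll4, the ligand of arterial and sprouting tip cells, had 11 UMIs in endothelial-like cells at day 5 (43.5 CPM) and 47 at day 0 (71.6 CPM), a ratio of 0.607 (0.284 to 1.19). A UMI was seen in 8 of 36 cells at day 5 and 30 of 86 at day 0. With the muscle-gene cells that held Pecam1 or Cdh5, the level was 29.1 CPM at day 5 (31 UMIs) and 60.3 CPM at day 0 (54 UMIs), a ratio of 0.483 (0.3001 to 0.765). In the cluster led by Cldn5 and Egfl7 Dll4 was 51.4 CPM at day 5 (5 UMIs) and 51.0 CPM at day 0 (7 UMIs). The one led by S100a9 and S100a8 had 118 CPM at day 5 (5 UMIs) and 112 CPM at day 0 (14 UMIs). Those S100a genes came from few cells: 34 of the 36 day 5 cells of the class and all 86 day 0 cells held neither. The next leading genes of that cluster were Tspan13 and Egfl7. The cluster led by Esm1 and Plvap had 27.6 CPM at day 5 (1 UMI) and 116 CPM at day 0 (15 UMIs), and both clusters led by Fabp4 had no UMI at day 5 and 11 at day 0. The totals of the muscle-gene cells include muscle RNA. These cells were 31 of the 67 joined cells at day 5 and 11 of the 97 at day 0. The part of this in the joined Dll4 ratio was not tested. Dll4 in fibroblasts was 0.0712% of its endothelial level at day 5 and 0.0486% at day 0, about the median of the endothelial markers. Of 7 genes measured in the Pecam1 class, Jag1 and Jag2 were at least 1.5-fold higher and Dll4 and Hey1 at least 1.5-fold lower. In the same comparison of 6007 genes, 13.3% were at least 1.5-fold higher and 16.9% at least 1.5-fold lower, 30.2% in all. The intervals of the share of cells with a UMI overlapped between the days for each of the 10 genes, in endothelial-like and in mural-like cells.

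**Figure D2:**
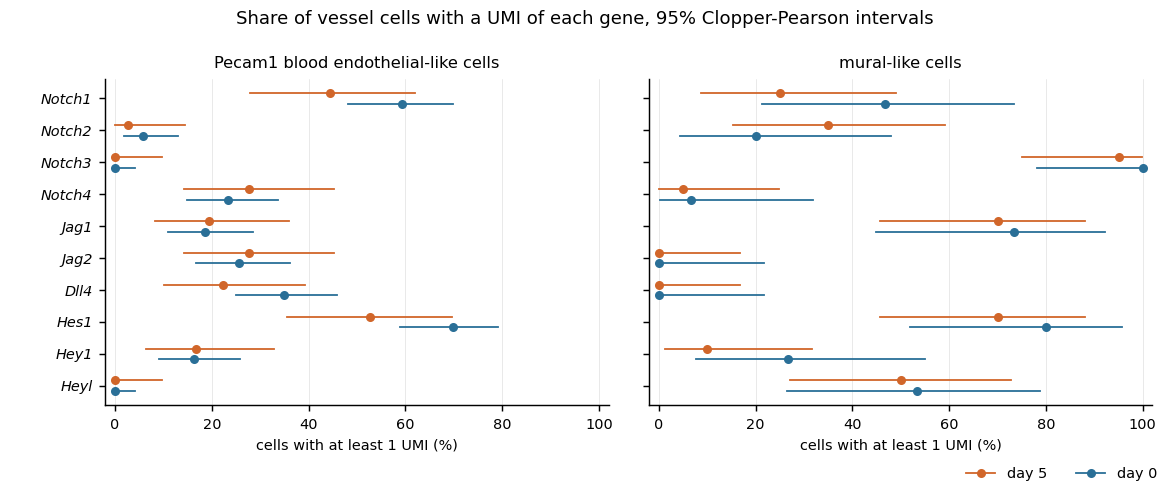
Share of cells with at least 1 UMI of each gene in Pecam1 blood endothelial-like cells (36 at day 5, 86 at day 0) and mural-like cells (20 and 15), with day 5 (orange) above day 0 (blue) and Clopper-Pearson 95% intervals. Notch1, Notch4, Jag2 and Dll4 are seen in endothelial-like cells, Notch3 and Heyl in mural-like cells, and the intervals of both days overlap for each gene.

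The make-up of the endothelial class differed between the days. The cluster led by Cldn5 and Egfl7 held 13 of 36 cells at day 5 and 19 of 86 at day 0, and the one led by Fabp4 and Selp 5 of 36 at day 5 and 26 of 86 at day 0. The other 3 clusters held 9 cells at day 5 and 15 at day 0 (S100a9 and S100a8), 6 and 14 (Esm1 and Plvap) and 3 and 12 (Fabp4 and Cd36). The part of this make-up in the values of the class was not tested. Markers of other cells moved in it too. The summed level of 7 leukocyte markers was 3046 CPM at day 5 and 10.7 CPM at day 0, and that of 3 haemoglobin genes 1499 CPM at day 5 and 9.15 CPM at day 0. Leaving out the cells with S100a8 or S100a9 UMIs kept 34 of 36 cells at day 5 and 86 of 86 at day 0. Notch1 was then 159 CPM at day 5 and 187 CPM at day 0, and Dll4 49.98 CPM at day 5 and 71.6 CPM at day 0. The Hes1 ratio was then 0.805, with an interval of 0.584 to 1.09 that includes 1. The subtype genes also differed: of 5 venous genes, Ackr1 and Selp, adhesion genes of venules, were higher with ratios of 3.24 and 3.99, and Vwf was lower at 0.638. Of 6 arterial genes, 5 were measured and Gja4, Sox17 and Sema3g were higher, with ratios of 3.73, 1.52 and 2.22. Efnb2 was level between the days. Cxcl12 was lower by less than 1.5-fold, at 1812 CPM on day 5 and 2446 CPM on day 0. Gja5 had 0 UMIs at day 5 and 8 at day 0, under the count minimum. The summed arterial list was lower at day 5, with 2389 CPM beside 2820 CPM at day 0. In this class 13.3% of all genes were at least 1.5-fold higher and 16.9% lower. The part of these shifts in the Notch ligand values was not tested.

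The targets were led by Hes1. Its order over classes at day 5 was endothelial-like (225 CPM) and mural-like cells (154 CPM, overlapping intervals), then tenocyte-like cells (80.8 CPM), osteoblast-like cells (68.1 CPM) and Prg4 fibroblasts (64.2 CPM), and last Saa3 (43.6 CPM), other Pdgfra (40.7 CPM) and Pi16 fibroblasts (36.9 CPM), whose intervals overlapped. At day 0 mural-like cells (515 CPM), endothelial-like cells (305 CPM) and tenocyte-like cells (170.4 CPM) stood apart in that order. The other 5 classes lay between 79.4 and 86.3 CPM at day 0, with overlapping intervals between neighbours. So the classes that were level with each other at day 0 were spread out at day 5.

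Hes1 was at least 1.5-fold lower in 4 of 7 classes. Tenocyte-like cells had 80.8 CPM at day 5 (941 UMIs) and 170.4 CPM at day 0 (1893 UMIs), a ratio of 0.474 (0.438 to 0.513), where 8.8% of all genes were that much lower 9.65% that much higher and 18.4% either. Pi16 fibroblasts had 36.9 CPM at day 5 (140 UMIs) and 82.3 CPM at day 0 (840 UMIs), a ratio of 0.448 (0.372 to 0.537), beside 7.21% of all genes lower and 7.48% higher. Other Pdgfra fibroblasts had 40.7 CPM at day 5 and 79.4 CPM at day 0, a ratio of 0.513 (0.487 to 0.540), beside 6.47% lower. The Saa3 class had 43.6 CPM at day 5 (1216 UMIs) and 81.0 CPM at day 0 (36 UMIs), a ratio of 0.538 (0.387 to 0.772), beside 21.7% of all genes lower. Osteoblast and lining genes also differed between the days there, and their part was not tested.

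The other 3 classes were under 1.5-fold, with ratios of 0.772 (0.655 to 0.909) in Prg4 fibroblasts, 0.790 (0.693 to 0.899) in osteoblast-like cells and 0.740 (0.541 to 0.997) in endothelial-like cells. In Prg4 fibroblasts 6.83% of all genes were at least 1.5-fold lower and 8.7% higher, in osteoblast-like cells 5.47% lower and 7.53% higher, and in endothelial-like cells 16.9% lower. Mural-like cells had 154 CPM at day 5 (50 UMIs) and 515 CPM at day 0 (49 UMIs), a ratio of 0.298 (0.197 to 0.452), beside 21.7% of all genes lower and with more RNA of fibroblast lists at day 5, as given for Notch3. The intervals for Hes1 in Pi16, other Pdgfra and tenocyte-like cells did not reach those in Prg4 and osteoblast-like cells. The Prg4 value was sensitive to how cells were chosen, at 0.981 with the stricter cell filter and 0.458 with single-gene gates. The endothelial value was 1.01 when the CPM of single cells was averaged and 0.444 with the looser cell filter. It was 0.438 with the muscle-gene cells that held Pecam1 or Cdh5, and 0.805 (0.584 to 1.09) without cells holding S100a8 or S100a9. Outside the 7 classes, satellite-like cells (27 UMIs at day 5, 11 at day 0, ratio 1.24, 0.596 to 2.77) and lymphatic endothelial-like cells (23 and 39, ratio 1.08, 0.616 to 1.86) were not lower.

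Hes1 was also counted by the number of UMIs per cell. At least 1 Hes1 UMI was found in 21.9% of fibroblasts at day 5 (1889 of 8611) and 35.9% at day 0 (1919 of 5340). At least 5 were found in 2.11% of fibroblasts at day 5 and 4.46% at day 0. Fibroblasts with a UMI held 2.18 on average at day 5 and 2.40 at day 0. There were fewer Hes1 UMIs than fibroblasts on both days (4112 in 8611 cells and 4610 in 5340). At that depth a lower level shows largely as a lower share. These values therefore cannot tell fewer cells with Hes1 RNA from less of it per cell. Among tenocyte-like cells, 29.7% had a UMI at day 5 and 54.5% at day 0, with 2.57 and 3.28 UMIs on average. Osteoblast-like cells had a UMI in 35.6% at day 5 and 34.4% at day 0, so there the share was not lower while the summed level was. After thinning each cell to 2000 UMIs the fibroblast shares were 7.17% at day 5 and 12.7% at day 0. No class lacked Hes1, so none gives a background for these shares.

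**Figure D3:**
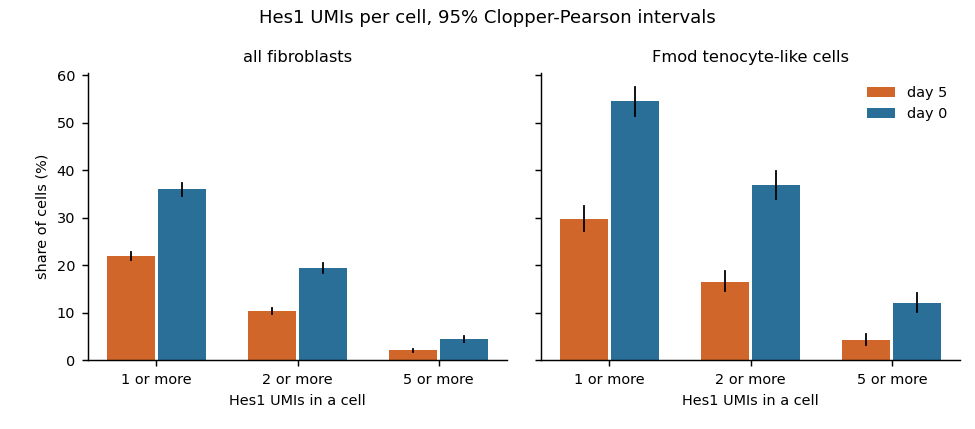
Share of cells with at least 1, 2 or 5 Hes1 UMIs in all fibroblasts and in Fmod tenocyte-like cells, with day 5 (orange) left of day 0 (blue) and Clopper-Pearson 95% intervals. In fibroblasts 21.9% of cells had at least 1 UMI at day 5 and 35.9% at day 0, and in tenocyte-like cells 29.7% and 54.5%.

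The fibroblast sub-clusters with the most cells differed between the days: the one led by Lpl and Sult5a1 (2238 cells at day 5, 895 at day 0) and the Saa3 class at day 5, and the one led by Scg3 and Igfbp6 (1247 and 1423) and the Pi16 class at day 0. Hes1 was lower at day 5 inside each of the 7 other Pdgfra sub-clusters named in the plot of sub-clusters. The ratio was 0.341 (0.307 to 0.378) in the Lpl and Sult5a1 sub-cluster, with 30.8 CPM at day 5 and 90.4 CPM at day 0. It was 0.377 (0.330 to 0.431) in the one led by Penk and Emx2. The sub-cluster led by Phex and Atf3 differed least, with 51.6 CPM at day 5 and 56.9 CPM at day 0, a ratio of 0.907 (0.790 to 1.04), and its day 0 level was the lowest of the 7. With sub-clusters of at least 50 cells in each library given equal weight, the fibroblast ratio was 0.550.

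**Figure D4:**
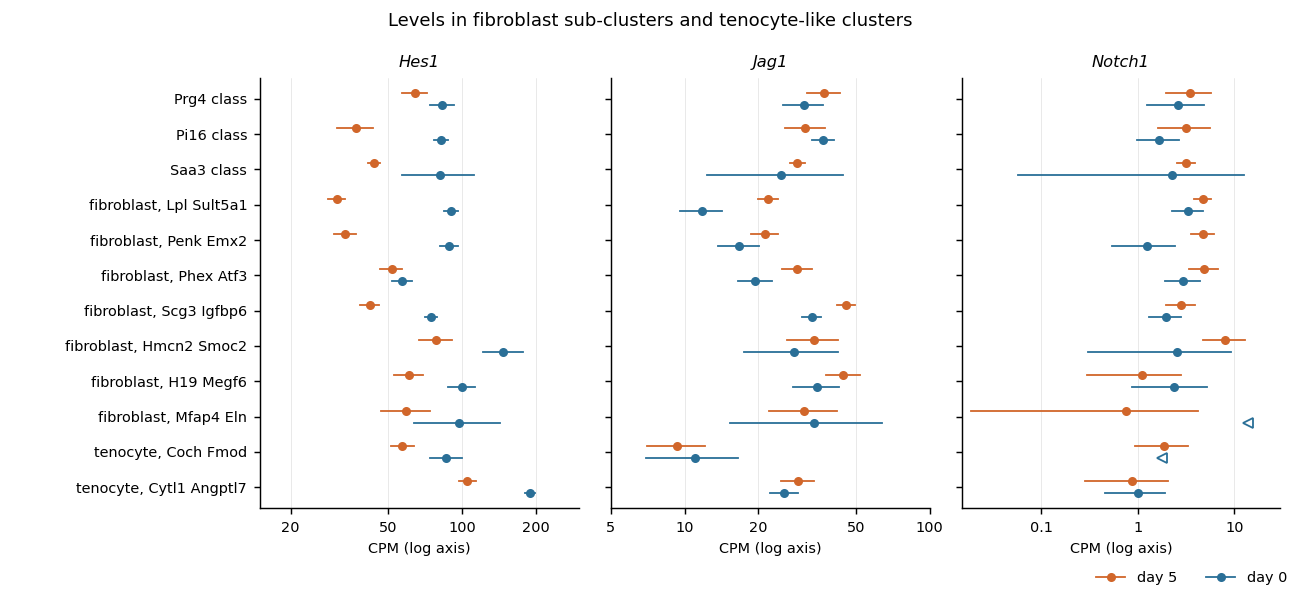
Level of Hes1, Jag1 and Notch1 in fibroblast sub-clusters (2 leading genes named) and both tenocyte-like clusters, in CPM on log axes that differ between panels, with day 5 (orange) above day 0 (blue) and exact Poisson 95% intervals; open triangles mark the upper bound where no UMI was counted, and the cycling sub-cluster and the unnamed one led by F3 and C2 are left out. Hes1 is lower at day 5 in every row, least in the Phex and Atf3 sub-cluster (51.6 and 56.9 CPM).

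Tenocyte-like cells fell into clusters led by Coch and Fmod (657 cells at day 5, 226 at day 0) and by Cytl1 and Angptl7 (574 and 832), so the day 5 class held more of the first. Hes1 was lower at day 5 in both, with 57.1 CPM at day 5 and 86.1 CPM at day 0 in the Coch cluster (ratio 0.663, 0.552 to 0.799) and 105 CPM at day 5 and 190 CPM at day 0 in the Cytl1 cluster (ratio 0.554, 0.504 to 0.608). With both clusters given equal weight the class ratio was 0.588. The haemoglobin genes summed to 828 CPM in tenocyte-like cells at day 5 and 10.5 CPM at day 0, and in fibroblasts to 132 CPM at day 5 and 9.14 CPM at day 0. In osteoblast-like cells they summed to 3.43 CPM at day 5 and 9.94 CPM at day 0. The part of haemoglobin RNA in the Hes1 values was not tested.

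Tissue digestion is known to induce early-response genes, so a list of 16 such genes was read beside Hes1. In fibroblasts 1 of 16 was at least 1.5-fold higher (Ier3) and 2 were lower (Hspa1a and Hspa1b), beside 10.6% of all genes higher and 7.79% lower, with a median log2 ratio of 0.22. Their summed level was 20132 CPM at day 5 and 17421 CPM at day 0. In tenocyte-like cells the median was 0.47, with 4 genes higher (Fosb, Jun, Egr1 and Ier3) and 3 lower (Nr4a1, Hspa1a and Hspa1b). Beside these, 9.65% of all genes were higher and 8.8% lower. In the Saa3 class none was higher and 6 were lower (Jun, Junb, Atf3, Btg2, Hspa1a and Socs3), beside 25.1% of all genes higher and 21.7% lower. The day 5 over day 0 ratio of the summed list was 0.749 in the Saa3 class and 0.934 in mural-like cells. In the other classes it ran from 1.12 (Prg4 fibroblasts) to 1.35 (endothelial-like cells). Hes1 was lower in all of these classes, but the Saa3 class had only 45 cells at day 0 and the mural-like cluster 15. The part of these genes in the Hes1 values was not tested.

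Hey1, a repressor induced by Notch in endothelium and in bone-forming cells, had 7 UMIs in endothelial-like cells at day 5 (27.7 CPM) and 37 at day 0 (56.4 CPM), in 6 of 36 and 14 of 86 cells. That ratio was 0.491 (0.185 to 1.12). It was 0.273 (0.134 to 0.522) with the muscle-gene cells that held Pecam1 or Cdh5, which were 31 of 67 cells at day 5 and 11 of 97 at day 0. In osteoblast-like cells it stood at 9.39 CPM at day 5 (63 UMIs) and 6.22 CPM at day 0 (35 UMIs), a ratio of 1.51 (0.985 to 2.35), where 7.53% of all genes were at least 1.5-fold higher. In Pi16 fibroblasts it was 2.64 CPM at day 5 (10 UMIs) and 6.47 CPM at day 0 (66 UMIs), a ratio of 0.408 (0.187 to 0.797). Other Pdgfra fibroblasts had 4.06 CPM at day 5 and 3.54 CPM at day 0. The sub-cluster led by F3 and C2 had 7.41 CPM at day 5 and 19.2 CPM at day 0, its highest fibroblast level at day 0. Saa3 fibroblasts had 1.58 CPM at day 5 (44 UMIs) and 6.75 CPM at day 0 (3 UMIs). Over all fibroblasts the ratio was 0.804 (0.674 to 0.960), and 1.14 after thinning, which was 1 random draw of fewer UMIs. Of 6 classes measured for Hey1, 3 were at least 1.5-fold lower and 3 had ratios above 1 (osteoblast-like, other Pdgfra and tenocyte-like). In those 3 the CPM intervals of both days overlapped, so a pattern unlike that of Hes1 was not established.

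Heyl, a Hey family member known from smooth muscle, was led by mural-like cells. They had 80.0 CPM at day 5 (26 UMIs) and 116 CPM at day 0 (11 UMIs), a ratio of 0.691 (0.330 to 1.55). Muscle satellite-like cells also carried it, at 72.4 CPM at day 5 (5 UMIs in 12 cells) and 85.9 CPM at day 0 (3 UMIs in 5 cells). No UMI was found in endothelial-like or Prg4 cells on either day. Among fibroblasts it was concentrated in the sub-cluster led by Hmcn2 and Smoc2, at 13.7 CPM at day 5 (29 UMIs in 224 cells) and 17.8 CPM at day 0 (14 UMIs in 84 cells). Over all fibroblasts it stood at 1.05 CPM on day 5 and 1.01 CPM on day 0.

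In all fibroblasts, of 55 further genes in 6 lists, 48 were measured, 3 were at least 1.5-fold higher, 2 were at least 1.5-fold lower, and the median log2 ratio was -0.03. These counts stand beside 10.6% of all genes higher and 7.79% lower, so they were under the background in both directions. None of the 10 processing genes passed 1.5-fold in either direction: the receptor protease gene Adam10 stood at 41.9 CPM on day 5 and 39.2 CPM on day 0. None of the 9 nuclear complex genes did: Rbpj, the DNA-binding partner of Notch, stood at 147 CPM on day 5 and 157 CPM on day 0. Nor did any of the 4 measured glycosylation genes or 11 measured turnover genes.

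The further genes past 1.5-fold in fibroblasts were 4 listed with the ligands and 1 target. Ccn3, which encodes a matricellular protein reported to bind Notch1, stood at 112 CPM at day 5 (10807 UMIs) and 311 CPM at day 0 (17863 UMIs), a ratio of 0.359 (0.351 to 0.368). In tenocyte-like cells it was 46.5 CPM at day 5 and 134 CPM at day 0, a ratio of 0.347. Dner, an atypical ligand of neural tissue, was lower on few counts, with 19 UMIs at day 5 and 32 at day 0. Dll1, a canonical ligand, had 43 UMIs at day 5 and 8 at day 0, a ratio of 3.19 (1.48 to 7.86), at levels of 0.444 and 0.139 CPM. Egfl7, a vascular protein, had 53 UMIs at day 5 and 9 at day 0. The target gene Hey2 stood at 1.75 CPM at day 5 (169 UMIs) and 0.974 CPM at day 0 (56 UMIs), a ratio of 1.79 (1.32 to 2.47).

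In tenocyte-like cells 39 further genes were measured, with 1 higher (Maml3, a nuclear co-activator, ratio 1.62) and 2 lower (Ccn3 and Hey2), beside 9.65% of all genes higher and 8.8% lower. In osteoblast-like cells 39 were measured, none was higher and 2 were lower (Numb, an inhibitor of Notch, ratio 0.647, and Lfng, a sugar transferase acting on the receptor, ratio 0.529), beside 7.53% of all genes higher and 5.47% lower. In endothelial-like cells 30 were measured, with 3 higher and 7 lower, beside 13.3% of all genes higher and 16.9% lower. Among the 7 were Nrarp, a feedback target, with 7 UMIs at day 5 and 40 at day 0, and Lfng with 6 and 51. Nrarp, and the genes named here with under 50 UMIs over both days (Hey2 in tenocyte-like and Lfng in osteoblast-like cells), were chosen after their values were seen.

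The genes most like each member were found by Pearson's r of log2(CPM + 10) over 16 points, 8 classes by 2 days, among 5413 candidates. They are a description, since all points of a day share 1 library and few classes set the pattern. Notch3 was most like Gucy1b1 (0.988), Lmod1 (0.987) and Olfm2 (0.982), and Dll4 like Exoc3l2, Gpihbp1 and Aplnr (each above 0.998). Notch1 was most like B4galt4 (0.987), Cd36 (0.986) and Prdm1 (0.981). Notch2 was most like Nfix (0.969), Antxr1 (0.953) and Bmpr1a (0.949), and Hes1 like Lin7c (0.935), Asap2 (0.920) and Zfp326 (0.919).

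The rest of the series is 1 library of CD45-positive, CD11b-positive, Ly6G-negative myeloid cells at day 9. Its 5945 cells had 29.1 CPM of Notch1, 61.6 CPM of Notch2, 9.91 CPM of Jag1 and 10.6 CPM of Hes1, and under 6 CPM of each other member. It differs from the stromal libraries in sort and day, so no comparison is made.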

How the data were processed

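Droplet libraries of the 10x 3′ assay were deposited by the authors as raw UMI counts per gene and cell, and the file headers name Cell Ranger 6.0.1. The submitters' processing notes name Seurat 4.3.0 and mm10. The 10 genes and all lists were chosen with earlier results of these data known. Cells were scaled to 10000 UMIs, and 2000 variable genes without the 65 pathway genes, 30 components and 15 neighbours were used for Leiden clustering (scanpy 1.11.5, Python 3.11.15) at resolution 1.0, then 0.5 for fibroblasts, with no integration. A cluster was named where its markers averaged a log2 fold of 1.5 (1.0 within fibroblasts) with at least 3 detected. Fibroblasts were first named by detection of Pdgfra markers alone, and fibroblast sub-clusters that reached no Prg4, Pi16 or Saa3 threshold kept the name other Pdgfra, including one whose Fmod markers averaged a log2 fold of 1.63. Clusters of low depth or led by other cells' genes stayed unnamed, 547 cells at day 5 and 235 at day 0. Scrublet called 0 and 1 doublets, which is too few to have worked, so doublets were kept and removed only as an alternative. Depth was 122224428 UMIs at day 5 and 77842586 at day 0. Counts were summed by class and given as CPM with exact Poisson intervals, ratios with exact conditional binomial intervals and shares with Clopper-Pearson intervals (scipy 1.17.1). Genes needed 20 UMIs over both days to be counted as higher or lower. Further pathway genes were named where they had at least 50 UMIs and a 1.5-fold difference, at most 4 per direction in fibroblasts, tenocyte-like and osteoblast-like cells. Scaling alternatives used edgeR 4.0.16 and DESeq2 1.42.0 factors only. Class sums were also simulated as Poisson counts with known folds, without differences between cells or libraries. They check the calculation under counting error only. The fibroblast ratio then had the right direction for 199 of 200 changed genes among 15540. The tenocyte-like ratio had it for 199 of 200 among 12522 and the endothelial-like ratio for 193 of 200 among 6007.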

Additional observations from a re-analysis of the deposited data

Results flagged for a closer look

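Jag1 differed in opposite directions in the vessel classes. Its ratio of day 5 over day 0 was 3.72 in endothelial-like cells and 0.439 in mural-like cells, each with 1 library per day. The difference between the classes was not tested, and 26 of the 33 day 5 endothelial UMIs came from 1 cell, without which, and without the highest cell at day 0, the endothelial ratio was 0.989.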

How the results depend on the processing

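Across 49 ratios and 21 alternatives, 681 values were recomputed. Of these, 615 lay within the counting interval of the reported ratio, 60 lay outside it, and 6, all of ratios past 1.5-fold, changed sides of 1. Of the values of ratios under 1.5-fold, 46 also changed sides of 1, 12 of them outside the interval, such as 1.27 for fibroblast Notch3 with single-gene gates and 1.01 for endothelial-like Hes1 with the mean of cell CPM. The Jag2 ratio in endothelial-like cells was 0.987 with the looser cell filter, 0.932 at joint resolution 2.0, 0.905 with single-gene gates and 0.961 with the muscle-gene cells that held Pecam1 or Cdh5, and the Jag1 ratio there 0.989 without the cell with most counts. The Notch2 ratio in the Saa3 class was 1.10 with single-gene gates. The fibroblast Hes1 ratio was 0.5003 with single-gene gates, 0.570 with cells thinned to 2000 UMIs and 0.569 with fibroblast classes weighted equally. Of the 10 genes, 0 were at least 1.5-fold higher in fibroblasts after thinning and 3 with classes weighted equally. The number at least 1.5-fold lower was 3 with classes weighted equally, 2 with no count minimum and 2 with sub-clusters weighted equally. The causes were not tested. Of 114 Hes1 values, 113 were below 1. TMM and DESeq2 scaling moved none of the 49 ratios. Leaving out the cell with most counts, adding the muscle-gene cells, weighting sub-clusters equally, adding the F3 and C2 sub-cluster and leaving out the cycling one or those led by Chad were chosen after seeing the data. No paired analysis was possible because each day is 1 library. Classes of 45 cells or fewer limit the Saa3 day 0, mural and day 5 endothelial values.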
